A study of Mus musculus with 4 samples.

Results

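The genes described here carry fatty acids into fat cells and store them as triglyceride. They are Lpl, Cd36, Fabp4, Gpam, Agpat2, Lpin1, Dgat1, Dgat2 and Cidec, 9 of the 37315 Ensembl gene identifiers in the input count files, listed by their names and functions. Their m6A peaks were those whose midpoint lay inside the RefSeq span of the gene, which gave 4 of the 22860 peaks of the vehicle list and 13 of the 31856 peaks of the entacapone list. Male C57BL/6 mice aged 23 weeks, obese from a high-fat diet, received vehicle or entacapone, and inguinal white adipose tissue was taken. All groups share the strain, sex, age and diet. Entacapone is a catechol-O-methyltransferase inhibitor used in Parkinson's disease and has also been described as an inhibitor of FTO, an enzyme that removes N6-methyladenosine (m6A) from RNA. Each treatment gave 1 input library of fragmented poly(A) RNA and 1 library of the fragments pulled down by an m6A antibody. The number of animals behind a library is not given in the sources used here, and neither is the dose or the length of treatment.

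White adipocytes fill their single large lipid droplet mostly with fatty acids taken from the blood. Lipoprotein lipase on the capillary wall frees fatty acids from circulating triglyceride, CD36 helps them across membranes and FABP4 carries them inside the cell. They are then joined to glycerol 3-phosphate in a fixed order: GPAM adds the first acyl chain, AGPAT2 the second, LPIN1 removes the phosphate, and DGAT1 or DGAT2 adds the last chain to make triglyceride. CIDEC sits where droplets touch and lets them merge. m6A is a common internal mark of messenger RNA that reader proteins bind and that is linked to splicing, translation and decay.

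The vehicle input held 24548212 gene-assigned counts and the entacapone input 33164576. No library had a replicate, so no difference below was set against the spread between animals, and each interval is an exact 95% interval that covers counting error only; reads copied by PCR without molecular identifiers are not independent molecules. Levels are CPM, counts scaled to the library total. They are not compared between genes, since transcript lengths were not available here. A gene is called higher or lower when its whole interval lies beyond 1.5-fold. By that rule 774 of the 13820 identifiers that averaged 1 CPM or more (5.60%) were higher in the entacapone input and 348 (2.52%) were lower, a split of 69.0% higher among the called that became 58.6% (647 and 457) with DESeq2 size factors. The median log2 ratio of all tested identifiers was 0.08 with the library total and -0.02 with DESeq2 size factors. The labelled tissue could be checked in the input only through the members, since the files pair no other identifier with a name: Fabp4 alone made up 1.86% of all counts with vehicle and 1.78% with entacapone. Among 7 white adipocyte markers, 3 carried a vehicle peak and 4 an entacapone peak, beside 41.1% and 50.0% of all protein-coding genes. Adipoq, Pnpla2 and Cfd had none in either list. Markers of other cell types carried peaks too, as given below, so these peaks do not tell the tissue.

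Of the 9 genes, 1 was called lower in the entacapone input (Dgat2) and 0 were called higher, against a background of 2.52% lower and 5.60% higher. With TMM factors, which scale to the bulk of genes rather than to the total, 3 were called lower (Dgat2, Lpl and Agpat2) and 0 higher, against 3.22% and 4.78% of all tested identifiers. Together the 9 genes made up 4.02% of the counts with vehicle and 3.32% with entacapone, a ratio of 0.825 (0.823 to 0.827). Their median log2 ratio was -0.31, beside 0.08 for all tested identifiers. The ratio was under 1 for 7 of the 9 genes, beside 38.6% of all tested identifiers. Most of the 9 genes are abundant, and among identifiers with at least 100 CPM the median was -0.006 and 50.7% had a ratio under 1. With TMM, DESeq2 or upper-quartile factors the ratio was under 1 for 8 of the 9 genes, beside 51.3%, 52.5% and 47.6% of all tested identifiers. Shares among identifiers with at least 100 CPM were not analysed with these factors. In bulk tissue, fewer cells of a type and less RNA per cell cannot be told apart.

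**Figure D1:**
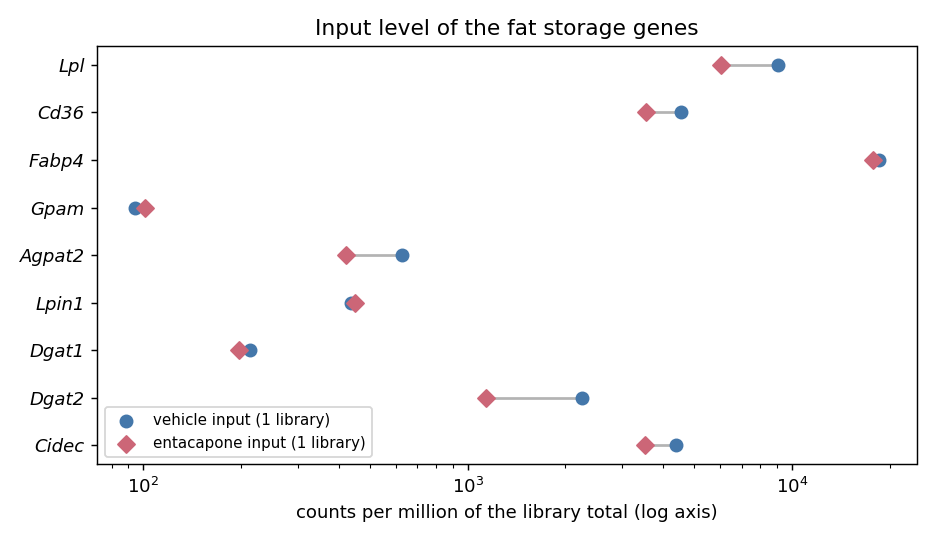
Input level of each of the 9 genes in CPM of the library total (log axis), with 1 circle for the vehicle library and 1 diamond for the entacapone library. Dgat2, Agpat2 and Lpl show the widest gaps, and Fabp4, Gpam, Lpin1 and Dgat1 the narrowest.

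Among the uptake genes, Lpl stood furthest from equality. Lpl, lipoprotein lipase (ENSMUSG00000015568, chromosome 8, 68880555 to 68906932), was counted 222796 times with vehicle and 200164 times with entacapone, a level of 9076 CPM against 6035 CPM. The ratio was 0.665 (0.661 to 0.669), a 1.504-fold lower level with an interval of 1.495 to 1.513 that straddles the 1.5-fold limit. With TMM factors Lpl was 1.60-fold lower (1.59 to 1.61) and was called lower. Only 4.36% of all tested identifiers, and 4.82% of those with at least 100 CPM, had a lower ratio than Lpl.

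Cd36, the fatty acid translocase (ENSMUSG00000002944, chromosome 5, 17781690 to 17888959), had 111959 counts (4561 CPM) with vehicle and 117489 counts (3543 CPM) with entacapone. Its ratio of 0.777 (0.770 to 0.783) lay inside the 1.5-fold limit under each scaling tried. Fabp4, the adipocyte fatty acid binding protein (ENSMUSG00000062515, chromosome 3, 10204342 to 10208616), had 456356 counts (18590.2 CPM) with vehicle and 589532 counts (17776 CPM) with entacapone. The Fabp4 ratio was 0.956 (0.953 to 0.960). The 3 uptake genes thus had ratios from 0.956 for Fabp4 to 0.665 for Lpl. That spread does not rest on the scaling: per count of Fabp4, Lpl had 0.488 counts with vehicle and 0.340 with entacapone, 0.6955 times as many (0.6905 to 0.7005), and Cd36 had 0.812 times as many (0.805 to 0.820). These intervals of within-library ratios come from a normal approximation on the log scale and also cover counting error only.

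The enzymes that build triglyceride divided by gene. Dgat2 was lower in the entacapone input, Agpat2 lay at the limit, and Gpam, Lpin1 and Dgat1 had ratios between 0.929 and 1.07 with the library total. Gpam, the mitochondrial acyltransferase that starts the chain (ENSMUSG00000024978, chromosome 19, 55067635 to 55127319), had 2308 counts (94.0 CPM) with vehicle and 3348 counts (101 CPM) with entacapone. Its ratio was 1.07 (1.02 to 1.13) with the library total and 1.01 (0.955 to 1.06) with TMM factors. The Gpam span is shared in part with the lncRNA genes Gm31356 and Gm31418, and the counting is not stated to use strand, so reads of Gpam and of these genes cannot be told apart there.

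Agpat2, the acyltransferase whose loss causes congenital lipodystrophy in people (ENSMUSG00000026922, chromosome 2, 26593057 to 26604417), had 15362 counts (626 CPM) with vehicle and 13986 counts (422 CPM) with entacapone. The ratio was 0.674 (0.659 to 0.690), a 1.48-fold lower level whose interval of 1.45 to 1.52 crosses the limit. With TMM factors Agpat2 was 1.58-fold lower (1.55 to 1.62) and was called lower. Per count of Gpam, Agpat2 had 6.66 counts with vehicle and 4.18 with entacapone, 0.628 times as many (0.592 to 0.665). Lpl and Agpat2 had nearly the same ratio: Lpl had 14.5 counts per count of Agpat2 with vehicle and 14.3 with entacapone, 0.987 times as many (0.964 to 1.01).

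Lpin1, the phosphatidate phosphatase lipin 1 (ENSMUSG00000020593, chromosome 12, 16535669 to 16653903), had 10726 counts (437 CPM) with vehicle and 14864 counts (448 CPM) with entacapone. Its log2 ratio of 0.037 changed sign with the scaling, to -0.056 with TMM factors, -0.066 with DESeq2 size factors and -0.028 with upper-quartile factors. The Lpin1 span overlaps that of Ntsr2 at its end, so reads in that stretch cannot be told apart either. No direction can be given for Lpin1.

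DGAT1 and DGAT2 catalyse the same last step but belong to unrelated protein families. Dgat1 (ENSMUSG00000022555, chromosome 15, 76502012 to 76512021) had 5230 counts (213 CPM) with vehicle and 6562 counts (198 CPM) with entacapone, a ratio of 0.929 (0.895 to 0.963). Dgat2 (ENSMUSG00000030747, chromosome 7, 99153663 to 99182713) had 55225 counts (2249.7 CPM) with vehicle and 37760 counts (1139 CPM) with entacapone. It was 1.98-fold lower with entacapone (1.950 to 2.002), and it was called lower under each of the 5 scalings. Only 1.84% of tested identifiers, and 1.46% of those with at least 100 CPM, had a lower ratio. The 2 enzymes differed from each other in this respect: Dgat2 had 10.6 counts per count of Dgat1 with vehicle and 5.75 with entacapone, 0.545 times as many (0.524 to 0.566).

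Cidec, the droplet fusion protein also called FSP27 (ENSMUSG00000030278, chromosome 6, 113424634 to 113435760), had 107758 counts (4389.6 CPM) with vehicle and 117030 counts (3529 CPM) with entacapone. The ratio was 0.804 (0.797 to 0.811), within the 1.5-fold limit. The Cidec span overlaps in part that of the lncRNA gene Gm52871, so reads of both cannot be told apart in that stretch. Cidec and Cd36 had close ratios: Cd36 had 1.039 counts per count of Cidec with vehicle and 1.004 with entacapone, 0.966 times as many (0.955 to 0.978). Dgat2 lay well below both, with 0.630 times as many counts per count of Cidec (0.620 to 0.639).

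Ordered by ratio, Dgat2 was lowest, followed by Lpl and Agpat2, which did not differ beyond their counting error, then Cd36, Cidec, Dgat1, Fabp4, Lpin1 and Gpam. The intervals of Dgat1 and Fabp4 overlapped, as did those of Lpin1 and Gpam. Relative to the median of all tested identifiers, 8 of the 9 genes lay below it, the exception being Gpam. A change of scaling shifts all log2 ratios alike, so it cannot alter this count. Below the median of the identifiers with at least 100 CPM, -0.006 with the library total, lay 7 of the 9. Among the 1786 identifiers with at least 100 CPM the 1.5-fold rule called 4.03% lower and 2.07% higher, so lower calls outnumbered higher ones at high levels, opposite to the split over all tested identifiers.

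**Figure D2:**
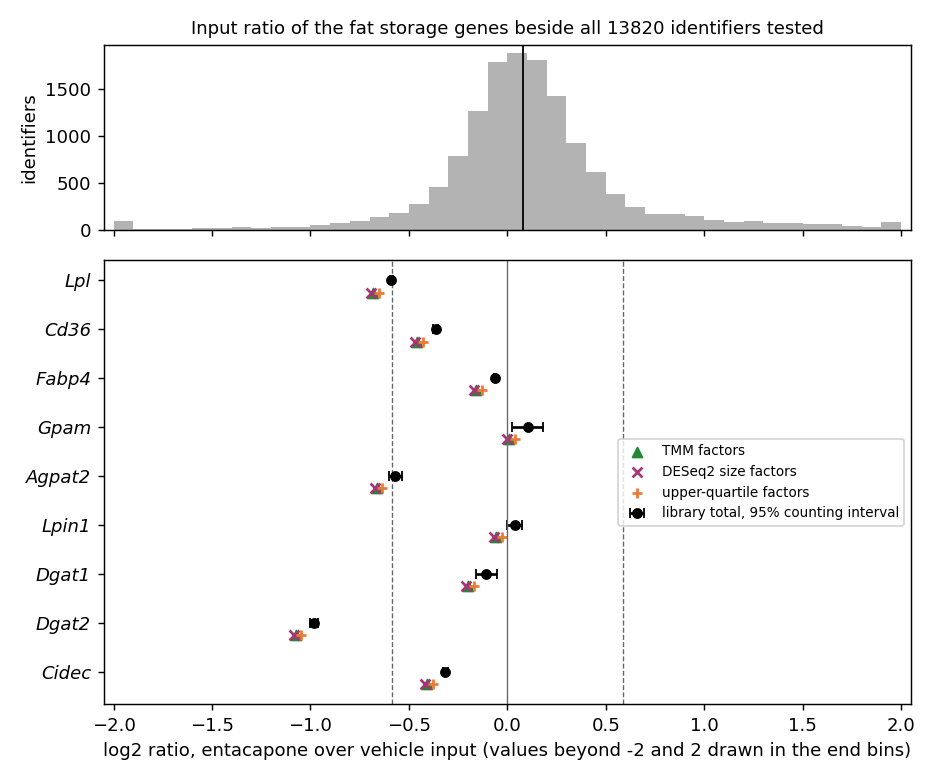
Upper panel, histogram of the log2 ratio (entacapone over vehicle input, library total) of the 13820 tested identifiers with a line at their median of 0.08. Lower panel, log2 ratio of each of the 9 genes with its 95% counting interval and the ratio under 3 other scalings. Dashed lines mark 1.5-fold: Dgat2 lies beyond the lower line under each scaling, Lpl and Agpat2 touch it with the library total and pass it with the other 3, and Lpin1 changes sign.

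The immunoprecipitates were compared to ask where m6A signal was listed on these genes. In the vehicle list 2 of the 9 genes carried a peak, Cd36 and Cidec with 2 each. In the entacapone list 7 of the 9 did: Cd36 had 4 peaks, Cidec 3, Gpam 2, and Lpl, Agpat2, Dgat1 and Dgat2 had 1 each. Fabp4 and Lpin1, 2 of the 9, had none in either list, as did 47.6% of protein-coding genes. An unlisted peak does not show that a transcript lacks m6A, since only peaks past the authors' threshold are listed. Over all 21887 protein-coding genes, 41.1% carried a vehicle peak and 50.0% an entacapone peak by the same midpoint rule. More entacapone than vehicle peaks were listed in 7 of the 9 genes, beside 29.2% of protein-coding genes. An entacapone peak without any vehicle peak was listed in 5 of the 9, beside 11.3%. Both shares include the 47.6% of protein-coding genes without a peak in either list, so they run low as a background for genes with peaks. All 9 genes averaged 1 CPM or more in the input, and shares among genes of like level were not analysed here. The entacapone list held 1.39 times as many peaks in all. The sequencing depth of the immunoprecipitates was not analysed here, and the entacapone input was the deeper of the inputs. The part of depth in the number of listed peaks was not tested.

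Of the 13 entacapone peaks in these genes, 3 overlapped a vehicle peak by at least 1 bp (23.1%), beside 55.9% of all entacapone peaks. Of the 4 vehicle peaks, 3 met an entacapone peak, beside 78.7% of the whole vehicle list. The folds that follow are the authors' values for each peak, read as linear folds although no header names them, and rank peaks within a list only. The folds of these genes' peaks were mostly low in their own lists: 3 of 4 vehicle peaks lay below the list median of 3.32 and 9 of 13 entacapone peaks below the list median of 3.10. With lists of equal length, made by keeping the 22860 entacapone peaks of highest fold, 9 entacapone peaks were left in 7 of these genes, beside the 4 vehicle peaks. This cut removes low-fold peaks from the entacapone list alone. With peaks at least 100 bp wide, 4 entacapone peaks were left in 3 of the 9 genes and 2 vehicle peaks in 2, and the peaks of Lpl, Agpat2, Dgat1 and Dgat2 were all left out. At a fold of at least 4, 0 vehicle and 2 entacapone peaks remained, in Lpl and Gpam. The whole lists held 13548 vehicle and 18211 entacapone peaks at that width, and 7988 and 9418 at that fold. The shares of all protein-coding genes with a peak were not analysed under these settings, so the gene counts have no background there.

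**Figure D3:**
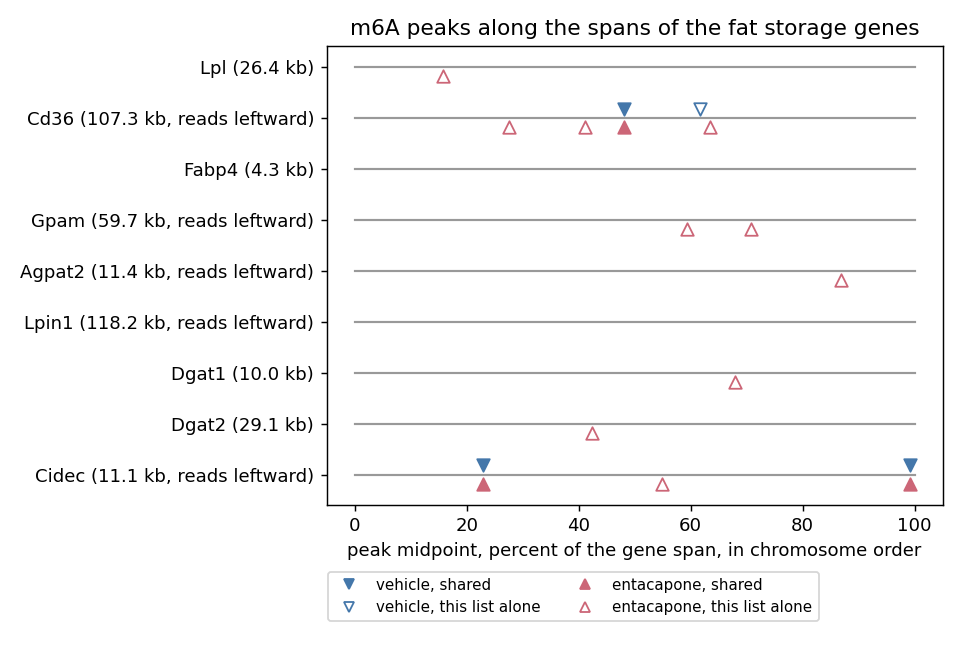
Midpoints of the m6A peaks along the span of each gene, in percent of the span in chromosome order, with vehicle peaks above each line and entacapone peaks below it. Filled marks overlap a peak of the other list and open marks do not: 3 positions are shared, in Cd36 and Cidec, and 10 entacapone peaks and 1 vehicle peak are not.

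Both vehicle peaks of Cidec overlapped an entacapone peak. The peak within the gene lay on chromosome 6 at 113427121 to 113427254 in the vehicle list (fold 2.36) and at 113427116 to 113427257 in the entacapone list (fold 2.52). The peak at the 5′ end of the span lay at 113435638 to 113435706 in the vehicle list (fold 2.16) and at 113435628 to 113435715 in the entacapone list (fold 1.76). Its midpoint was 88 bases inside that end in the vehicle list, but 908 bases upstream of the other of the 2 Cidec starts with a RefSeq promoter window, at 113434764. That place also lies in the span of the lncRNA gene Gm52871, so the peak alone does not show which of these genes the signal belongs to. The other Cidec peak was listed for entacapone alone, at 113430720 to 113430769 (fold 2.74), 3466 bases from the nearest vehicle peak. The entacapone peak at the 5′ end reaches 5 bases into the promoter window of the outer start, at 113435760 (RefSeq, build GRCm38.p6, minus strand). The last 100 bases of that window, chr6:113435711-113435810, are shown 5′ to 3′ to place the peak against that start, which lies 50 bases before the end. Capitals mark the bases under the peak.
Cidec: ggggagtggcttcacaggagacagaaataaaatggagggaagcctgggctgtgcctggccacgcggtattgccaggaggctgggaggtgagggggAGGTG

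Cd36 held 1 shared position and 4 that were listed for a single library. The shared peak ran from 17833168 to 17833411 on chromosome 5 in the vehicle list (fold 2.18) and from 17833190 to 17833408 in the entacapone list (fold 2.19), about 2.61 kb downstream of the start used by RefSeq's promoter window. The entacapone list alone had Cd36 peaks at 17811146 to 17811251 (fold 2.08), 17825715 to 17825791 (fold 3.91) and 17849631 to 17849728 (fold 1.68). The vehicle list alone had 1, at 17847790 to 17847850 (fold 3.83), 1781 bases from the nearest entacapone peak. That fold value was held by 112 vehicle peaks. With lists of equal length Cd36 had 2 vehicle peaks and 1 entacapone peak, so the order of its counts turned in that setting, which drops low-fold entacapone peaks alone.

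The other 5 genes with a peak had entacapone peaks alone. The Lpl peak, on chromosome 8 at 68884673 to 68884770, had a fold of 5.18, above 86.7% of the entacapone peaks, and lay 86449 bases from the nearest vehicle peak. It was 97 bp wide. In Gpam, peaks lay on chromosome 19 at 55103008 to 55103077 (fold 2.51) and at 55109749 to 55109922 (fold 6.12, above 93.2% of the list). Both Gpam peaks also lie in the span of Gm31356 and so cannot be given to Gpam alone. The fold of 6.12 was held by 106 entacapone peaks. Without peaks inside another gene's span, 3 vehicle and 10 entacapone peaks were left in 2 and 6 of the 9 genes. The shares of all protein-coding genes were not analysed in that setting.

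The Agpat2 peak lay on chromosome 2 at 26602885 to 26602949 (fold 3.38), 1500 bases inside the annotated 5′ end. The Dgat1 peak lay on chromosome 15 at 76508772 to 76508840 (fold 2.42) and the Dgat2 peak on chromosome 7 at 99165949 to 99166015 (fold 2.72), each between 64 and 68 bp wide as was that of Agpat2. Dgat2, Lpl and Agpat2, the 3 genes with the lowest input ratios, thus each had 1 entacapone peak and 0 vehicle peaks, and Gpam and Dgat1, with input ratios of 1.07 and 0.929, had entacapone peaks alone as well. Whether these peaks lie in exons, introns or untranslated regions was not analysed here.

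**Figure D4:**
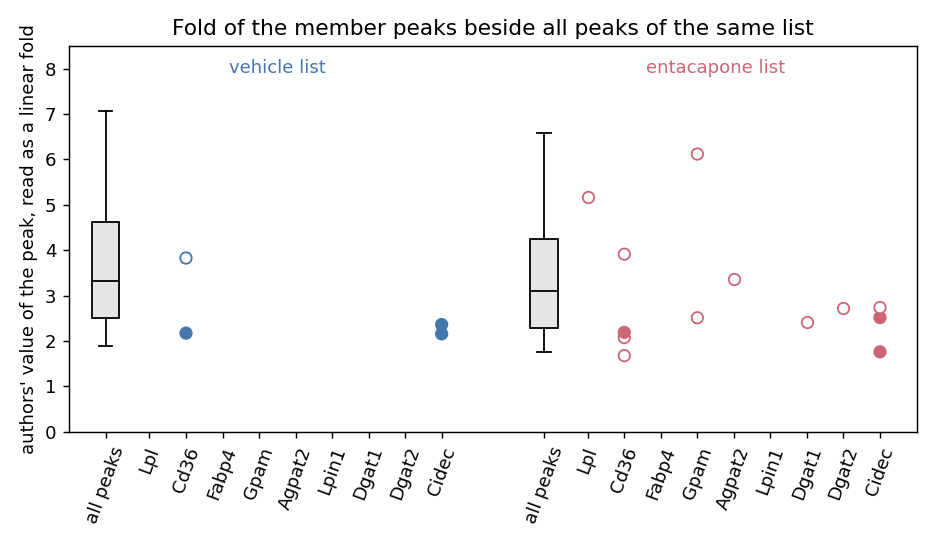
Authors' value, read as a linear fold, of each peak in the 9 genes, by list, beside all peaks of that list (box, quartiles and median; whiskers, 5th to 95th percentile). Filled points overlap a peak of the other list. The Gpam peak of fold 6.12 and the Lpl peak of fold 5.18 lie above the upper quartile of the entacapone list, and the shared Cd36 and Cidec peaks lie below the medians of their lists.

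RefSeq promoter windows (GRCm38.p6, 250 bases before to 50 after a start) were found for 5 of the 9 genes, 7 windows in all: Agpat2, Cd36, Lpin1, and 2 each for Cidec and Gpam. The Agpat2 and Cd36 windows are shown because these genes had ratios below 1 in the input and carried peaks and because their matches differ. Capitals mark matches on either strand to GGGCGG (a GC box), CCAAT, and AGGTCA (the core motif of nuclear receptors such as PPARG). The Agpat2 window is chr2:26604368-26604667 and the Cd36 window chr5:17835847-17836146, both on the minus strand.
Agpat2: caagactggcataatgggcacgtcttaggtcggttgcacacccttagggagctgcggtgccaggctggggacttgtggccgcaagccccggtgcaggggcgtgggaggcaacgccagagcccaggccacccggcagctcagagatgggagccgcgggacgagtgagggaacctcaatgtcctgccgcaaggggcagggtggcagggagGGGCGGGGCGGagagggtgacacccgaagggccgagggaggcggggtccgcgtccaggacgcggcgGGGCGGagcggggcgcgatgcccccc
Cd36: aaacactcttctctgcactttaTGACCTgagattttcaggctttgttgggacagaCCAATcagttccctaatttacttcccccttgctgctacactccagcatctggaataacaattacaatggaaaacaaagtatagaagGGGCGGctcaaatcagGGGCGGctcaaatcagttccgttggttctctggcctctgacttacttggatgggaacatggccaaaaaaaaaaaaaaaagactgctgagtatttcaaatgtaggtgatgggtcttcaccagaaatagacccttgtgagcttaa
The Agpat2 window held 3 matches to GGGCGG, 2 of them sharing a base, and none to the other motifs. The Cd36 window held 2 matches to GGGCGG, 1 to CCAAT and 1 to AGGTCA, the last read on the opposite strand as TGACCT. Of the 7 windows, 3 held GGGCGG, 2 CCAAT and 3 AGGTCA. The 2 windows of Cidec, which also had a ratio below 1 and carried peaks, held 0 matches to any motif searched. Over all 32851 windows, 35.7% held GGGCGG, 37.4% CCAAT and 16.3% AGGTCA, so each of these is common. The direct repeat AGGTCANAGGTCA, the form bound by PPARG with its partner, was in 0 of the 7 windows and in 0.0396% of all windows. TATAAA was in 0 of the 7 and in 13.6% of all, and CACGTG in 0 of the 7 and in 7.15% of all. These matches describe the letters of the windows and say nothing of binding.

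Other genes of the pathway, 36 in number, could be followed through their peaks alone. Of them, 16 carried a vehicle peak and 23 an entacapone peak, 15 had more entacapone than vehicle peaks, 1 had fewer, 7 had equal numbers and 13 had none in either list. In all they held 27 vehicle and 52 entacapone peaks, and the whole entacapone list was 1.39 times as long as the vehicle list. Over all protein-coding genes 41.1% carried a vehicle peak, 50.0% an entacapone peak and 47.6% none in either list. The 15 of 36 with more entacapone peaks stand beside 29.2% of protein-coding genes, and the 1 with fewer beside 8.00%. These shares include genes without any peak, so they run low as a background for genes with peaks. With lists of equal length the numbers with a peak were 16 and 15, and the shares of all protein-coding genes were not analysed there.

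Among the genes that handle fatty acids before storage, Acsl3, an acyl-CoA synthetase of lipid droplets, had 2 vehicle and 7 entacapone peaks. Acsl1, the main acyl-CoA synthetase of adipocytes, had 5 and 6, with the top fold of the pathway list in each library (9.96 and 11.7). Acsl4 had 0 and 1. Slc27a4, a fatty acid transport protein, had 2 and 3 peaks, Got2, which is also known as the membrane fatty acid binding protein, 2 and 4, Vldlr, a lipoprotein receptor, 1 and 2, and Lmf1, which matures lipoprotein lipase, 0 and 1. Gpihbp1, which holds lipoprotein lipase on the capillary wall, and Angptl4, its inhibitor, had none in either list.

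Among the acylation genes, Gpat3 and Gpat4, the acyltransferases of the endoplasmic reticulum, had 1 vehicle and 3 entacapone peaks each, and Agpat1 and Agpat3 had 0 and 2 each. Mogat1, which acylates monoacylglycerol, had 2 vehicle peaks and 1 entacapone peak, the only gene of the list with fewer. Lpin2 and Lpin3, the relatives of Lpin1, had equal numbers, 2 and 2 for Lpin2 and 1 and 1 for Lpin3. For the supply of glycerol, Aqp7, the glycerol channel, had 0 and 2 peaks and Pck1, phosphoenolpyruvate carboxykinase, 0 and 1. At the droplet, Plin1, perilipin 1, had 2 and 4 peaks and Fitm2 0 and 1, whereas Plin2, Plin5, Bscl2 and Hilpda had 1 in each list.

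**Figure D5:**
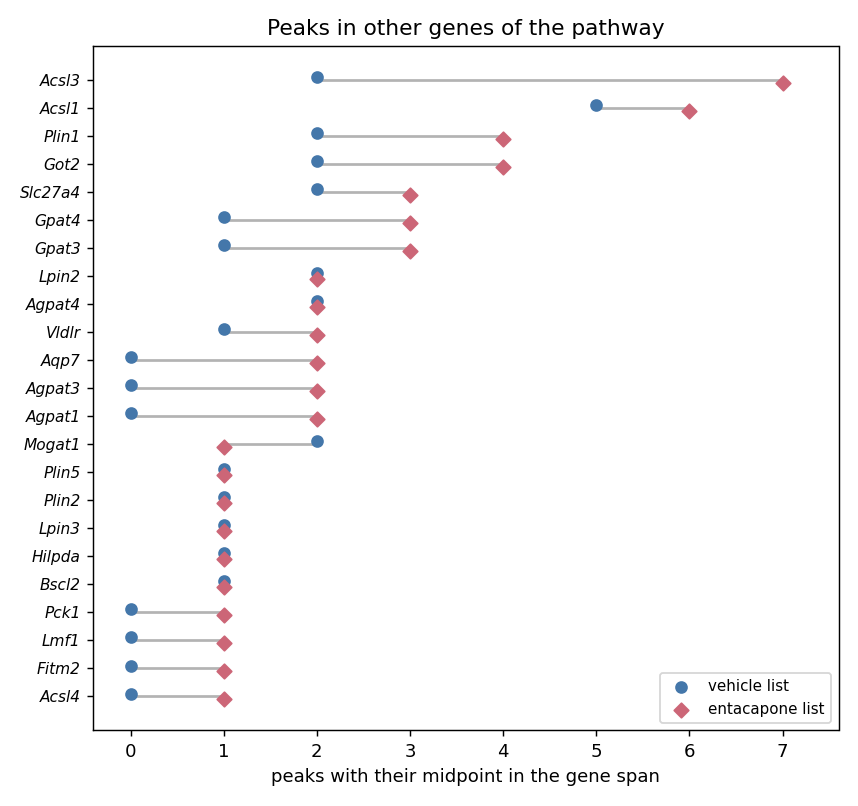
Number of m6A peaks in the vehicle list (circles) and the entacapone list (diamonds) for the 23 other pathway genes with a peak in either list. Diamonds lie to the right of circles for 15 genes, level with them for 7 and to the left for Mogat1.

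Lpl, Cd36 and Fabp4 are also made by macrophages, and Cd36 and Fabp4 by capillary cells. The peaks of cell type markers are therefore given beside the members. Over all protein-coding genes, 41.1% carried a vehicle peak, 50.0% an entacapone peak, and 29.2% had more entacapone than vehicle peaks. All 5 endothelial markers (Pecam1, Cdh5, Vwf, Tek and Kdr) carried an entacapone peak and 2 a vehicle peak, with 20 and 3 peaks in all. Of 5 macrophage markers, 2 had a vehicle and 2 an entacapone peak, with 2 vehicle and 5 entacapone peaks. Lymphocyte and lymph node markers had 3 of 5 with a vehicle and 4 of 5 with an entacapone peak (6 and 15 peaks), skeletal muscle markers 3 and 2 of 5 (7 and 9 peaks), fibroblast and preadipocyte markers 2 and 2 of 4 (5 and 4 peaks) and epithelial markers 3 and 5 of 5 (5 and 6 peaks). The 7 white adipocyte markers held 5 vehicle and 9 entacapone peaks. The input levels of these markers were not analysed here because their identifiers carry no names, and the part of other cell types in the values of the 9 genes was not tested.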

How the data were processed

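Input RNA and m6A immunoprecipitates were sequenced in 4 libraries, 1 of each kind. The deposited input files hold raw read counts per Ensembl identifier, not normalized. The deposited peak files give positions and a number without a name, read here as the authors' fold, a linear ratio of IP to input. Among values held by at least 50 peaks, the longest equally spaced run had 8 values in the vehicle list and 9 in the entacapone list, and 2 and 2 when the values were read as log2, or 2 and 3 as log10. Per the submitters' processing notes, TopHat2 2.1.1, MACS2 and mm10 were used. The MACS2 version is not given in the sources used here, and neither is the threshold, the read counter, the annotation release or whether starts count from 0 or 1.

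Counts were scaled to the library total, with TMM and upper-quartile factors (edgeR 4.0.16, R 4.3.3) and DESeq2 1.42.0 size factors as alternatives. Log2 ratios used a prior of 0.5 counts, and ratios carry exact conditional (Clopper-Pearson) intervals, computed with scipy 1.17.1. With 1 library a group no test across samples was made. RefSeq spans (GRCm38.p6, the assembly called mm10) placed the peaks; the Ensembl identifiers of the 9 genes were paired with their symbols by name, and no table pairs the others. Peak sequences were not analysed here, as no genome was used. All 9 genes are named, and of the pathway list the genes whose peak numbers differ, with some equal or empty ones named for context after their values were seen. The members and lists were chosen with earlier results of these data known. Alternatives added after seeing the data were the total without the 9 genes, a 100 CPM minimum and leaving out peaks in another gene's span.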

Additional observations from a re-analysis of the deposited data

How the results depend on the processing

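No paired analysis was possible because each group holds 1 library and the labels give no replicate numbers, and for the same reason no library could be left out. Of 130 values computed under alternative settings, 98 kept their direction and their side of the limit or stayed within the margin, 7 passed the limit, 1 lost it, 21 moved and 3 reversed. With TMM, DESeq2 and upper-quartile factors the log2 ratio was -0.68, -0.69 and -0.65 for Lpl and -0.66, -0.67 and -0.63 for Agpat2, which were then called lower; that of Lpin1 turned to -0.056, -0.066 and -0.028; and the median of the 9 genes was -0.41, -0.42 and -0.38. With the library total without the 9 genes Lpl was called at -0.60. With an interval beyond 2-fold Dgat2, at -0.98, was not called, and 343 identifiers were higher and 167 lower. At 100 CPM or more 37 were higher and 72 lower. At a fold of at least 4 the 9 genes held 0 vehicle and 2 entacapone peaks, in 0 and 2 genes. Of these peaks 0 were shared, beside 40.3% of all vehicle and 33.8% of all entacapone peaks of that fold. At that fold 5 and 4 pathway genes had a vehicle and an entacapone peak. With lists of equal length, by the highest folds, 1 vehicle and 1 entacapone peak of the 9 genes were shared. The shares over the whole lists were then 58.3% and 57.5%, and 15 pathway genes had an entacapone peak. With peaks at least 100 bp wide the 9 genes held 2 vehicle and 4 entacapone peaks, the latter in 3 genes. Any overlap with the span in place of the midpoint, and an overlap of 50% of both peaks, left the numbers for the 9 genes as they were. The shares of all protein-coding genes with a peak were not analysed under the alternative peak settings.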

Other observations

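Peaks were also listed within 5 kb outside the spans of 3 of the 9 genes. Next to Dgat1, both lists had a peak on chromosome 15, at 76500701 to 76500814 (fold 2.52) in the vehicle list and 76500627 to 76500900 (fold 2.08) in the entacapone list, inside the span of Hsf1, the heat shock factor gene. Next to Lpin1, both lists had a peak on chromosome 12, at 16657755 to 16657981 (fold 3.88) and 16657843 to 16657983 (fold 5.48), inside the span of Ntsr2, a neurotensin receptor gene. Next to Agpat2, the entacapone list alone had a peak on chromosome 2 at 26608007 to 26608084 (fold 3.28), 3590 bases outside the span and in no annotated gene span.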
